A study of Mus musculus with 6 samples.

Results

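The Dlk1-Dio3 locus of mouse chromosome 12 is an imprinted gene cluster, and 6 of its transcripts were followed in fetal and adult mammary epithelial cells. They were the protein-coding genes Dlk1, Rtl1 and Dio3, which are expressed from the paternal chromosome, and the noncoding RNAs Meg3, Rian and Mirg, which are expressed from the maternal chromosome. A probe was taken when the accession printed for it on the array belonged to one of these genes in RefSeq's gene table for the GRCm38.p6 assembly. This gave 8 of the 55681 non-control probes, for 5 of the 6 genes, since no probe carried an accession of Rian. Dlk1 had 2 probes, Meg3 had 3, and Mirg, Rtl1 and Dio3 had 1 each. A further probe that the study annotates as Mirg carries an accession that the table pairs with no gene, and it was not used. The set was chosen by the fetal to adult basal difference on these same arrays, which was known for several of the genes, so that difference, and any call by the fit across all probes, is given for the members as a description only.

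At this locus, a control region between Dlk1 and Meg3 carries methylation on the paternal chromosome only. The unmethylated maternal copy permits Meg3, Rian and Mirg to be transcribed in one direction, while Dlk1, Rtl1 and Dio3 are kept silent on that chromosome. The protein-coding genes act in growth and differentiation, and the long noncoding RNAs are hosts to many small nucleolar RNAs and to a large cluster of microRNAs. The locus is active in many fetal tissues and its transcripts commonly decline after birth.

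Both populations came from female C57Bl6J mice, and each was measured on 3 arrays of freshly sorted cells labelled as biological replicates. The fetal cells were from mammary rudiments at embryonic day 18.5 and had the surface phenotype CD31-, CD45-, Ter119-, EpCAM++ and CD49f+. The adult basal cells were from glands of mice aged 8 to 12 weeks and were CD31-, CD45-, Ter119-, BP-1-, EpCAM+ and CD49f+, so both sorts removed endothelial cells and blood cells by their surface antigens. No gene was altered and no agent was given in either group, but the sources do not state whether each replicate came from 1 animal or from several. Signals are log2 intensities of 1-colour arrays, quantile normalized over the 6 arrays, and differences are fetal minus adult basal on that scale. Between 76.4% and 83.3% of the non-control probes on an array were well above background. In an inbred strain the arrays cannot tell the 2 parental alleles apart, so which allele was expressed was not measured. A lower signal can come from fewer cells that express a gene or from less RNA in each cell, and these cannot be told apart in sorted bulk RNA.

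The microRNAs carried by the noncoding transcripts are shown first, because they are what the locus's RNAs are best known for. A further reason is that no probe of this array was matched to them by accession. RefSeq placed 103 genes between the start of Dlk1 and the end of Dio3 (GRCm38.p6, chr12:109452485-110281097), of which 61 were microRNA genes, 19 were small nucleolar RNA genes, 16 were long noncoding RNA genes and 3 were protein coding. Only 8 of the 103 had a probe matched by accession. Of 58 annotated hairpins, 15 lay within the span of Rtl1, 10 within Mirg, 3 within Rian and 1 within Meg3. The following 5 mature microRNAs lie on the plus strand within the span of Rtl1 (chr12:109590459-109595352), antisense to that gene. MicroRNAs from this antisense strand are known to lower Rtl1. The seed, bases 2 to 8, is in capitals, and no 2 of the 5 share one.
mmu-miR-431-5p: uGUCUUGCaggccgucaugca
mmu-miR-433-3p: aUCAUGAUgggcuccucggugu
mmu-miR-127-3p: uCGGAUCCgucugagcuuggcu
mmu-miR-434-3p: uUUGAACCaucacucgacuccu
mmu-miR-136-5p: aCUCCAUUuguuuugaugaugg

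The next 5 lie on the plus strand within Mirg (chr12:109735669-109743784) and show the kind of cargo that its transcript carries. The first pair share the seed GGUUGCC, again in capitals, while the others each have a seed of their own. None of these mature RNAs was measured, and a host transcript's signal is not a measure of the microRNAs cut from it.
mmu-miR-453: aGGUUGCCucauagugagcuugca
mmu-miR-496a-5p: aGGUUGCCcaugguguguuca
mmu-miR-377-3p: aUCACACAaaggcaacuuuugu
mmu-miR-409-3p: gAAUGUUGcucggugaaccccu
mmu-miR-410-3p: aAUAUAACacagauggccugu

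Dlk1, Meg3 and Mirg had signals 18.4-fold to 22.1-fold higher in the fetal cells by their main probes, the probe of each gene with the highest mean over the 6 arrays. Rtl1 was near background in the fetal cells and not well above it in the adult basal cells. Dio3 was dim in both populations and its arrays overlapped. Both parental classes therefore held a transcript with a large difference, and the paternal class also held one with almost none.

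Dlk1 encodes a transmembrane protein with EGF-like repeats that is related to the Notch ligands and is known for holding back the differentiation of preadipocytes. Its main probe, A_66_P117477, gave log2 signals of 14.89, 15.05 and 15.02 in fetal replicates 1 to 3 and of 10.45, 11.17 and 9.93 in adult basal replicates 1 to 3. The means were 14.98 ± 0.09 and 10.52 ± 0.62 (SD, n = 3 each), a difference of 4.47 with a standard error of 0.29. The fetal arrays lay close together and far above the adult basal arrays, which spread widely. The second Dlk1 probe, A_55_P2105371, gave 11.41, 11.43 and 11.61 in fetal cells and 7.15, 7.15 and 6.02 in adult basal cells, a difference of 4.71 (standard error 0.30) that was 4.0 with normexp background correction. On both probes adult basal replicate 3 was the lowest array. Within the first slide, which held fetal replicate 1 and adult basal replicates 1 and 3, the main probe differed by 4.70, and within the second, which held the other 3 arrays, it differed by 3.87.

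Meg3 is a long noncoding RNA whose transcription starts downstream of Dlk1 and which is known to restrain proliferation. Its main probe, A_51_P455997, gave 14.30, 14.36 and 13.89 in fetal replicates 1 to 3 and 9.78, 9.73 and 9.88 in adult basal replicates 1 to 3. The difference was 4.39 (standard error 0.15), from means of 14.18 ± 0.26 and 9.80 ± 0.08 (SD, n = 3 each). Unlike Dlk1, the spread of Meg3 was in the fetal arrays, where replicate 3 was the lowest, and the adult basal arrays nearly coincided. Probe A_55_P2033407 gave 11.16, 11.14 and 10.57 against 6.41, 6.46 and 6.86, a difference of 4.38 (standard error 0.20) that was 3.62 with normexp. Probe A_52_P196568 gave 8.92, 8.95 and 8.33 against 4.95, 5.02 and 4.96, a difference of 3.76 (standard error 0.18). Its adult basal signals lay below the low-signal limit of 5.95, and the difference was 2.37 with normexp and 3.22 with an offset of 16 added before the logarithm. All 3 Meg3 probes thus placed fetal replicate 3 below the other fetal arrays. The main probe differed by 4.46 within the first slide and by 4.40 within the second.

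Mirg is a noncoding RNA at the far end of the maternal transcription unit and hosts the microRNAs shown above. Its probe, A_66_P121059, gave 11.33, 11.41 and 11.14 in fetal cells and 7.15, 7.21 and 6.90 in adult basal cells. The means were 11.29 ± 0.14 and 7.09 ± 0.17 (SD, n = 3 each), a difference of 4.20 with a standard error of 0.13. The groups were far apart, and fetal replicate 3 was again the lowest fetal array. Within the slides the difference was 4.30 and 4.06, and with normexp it was 3.65.

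Rtl1 encodes a protein derived from a retrotransposon that is needed for the fetal vessels of the placenta. Its probe, A_55_P1992774, gave 4.78, 5.19 and 3.71 in fetal cells and 3.03, 2.77 and 1.89 in adult basal cells. It was well above background on 2 of 3 fetal arrays and on 0 of 3 adult basal arrays, so the adult signal is only bounded. With the adult basal signal raised to background, the fetal signal was 1.72-fold higher. For this, each adult basal array took the probe's own signal or, if higher, the lowest signal of any probe well above background. The fetal mean includes an array that was not well above background, so 1.72-fold is not a strict minimum. The groups did not overlap, and both spread widely, with means of 4.56 ± 0.77 and 2.56 ± 0.59 (SD, n = 3 each). Fetal replicate 3 was the lowest fetal array here as well. The difference of 2.00 became 0.39 with normexp background correction and 0.87 with the offset of 16.

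Dio3 encodes the deiodinase that inactivates thyroid hormone. Its probe, A_55_P2091468, gave 4.56, 4.80 and 5.06 in fetal cells and 4.96, 4.48 and 4.40 in adult basal cells, and was well above background on 3 fetal and 2 adult basal arrays. The groups overlapped and the means, 4.81 ± 0.25 and 4.61 ± 0.30 (SD, n = 3 each), differed by 0.20. The Rtl1 and Dio3 probes fell below the low-signal filter and were not in the fit.

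**Figure D1:**
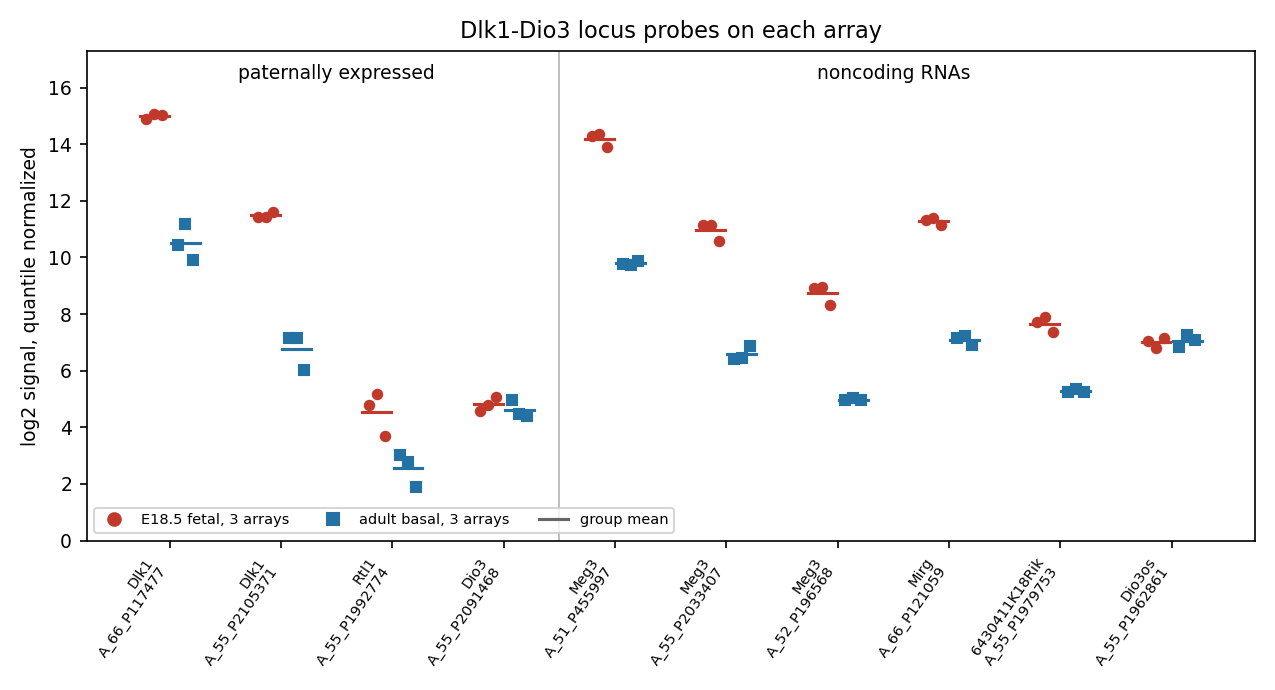
Log2 signal (quantile normalized, vertical axis) of each locus probe (horizontal axis, gene and probe name) on the 3 fetal arrays (circles) and the 3 adult basal arrays (squares), with bars at the group means. Fetal arrays lie above all adult basal arrays for the probes of Dlk1, Meg3, Mirg, Rtl1 and the antisense transcript 6430411K18Rik, whereas Dio3 and Dio3os overlap.

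Dlk1 and Meg3 differed together, so the sequence at their starts is shown. RefSeq's 250 bases before a start were read for both (GRCm38.p6, plus strand). Letters in capitals are matches, on either strand, to the cAMP response element TGACGTCA, the TATA motif TATAAA, the ZFP57 motif TGCCGC or the GC box GGGCGG. The Meg3 window (chr12:109540746-109540995) held a cAMP response element that began 57 bases before the start, 2 TATA matches on opposite strands that overlap by 2 bases and begin 29 and 25 bases before it, and 1 ZFP57 match that began 190 bases before it. RefSeq lists another Meg3 start, whose window (chr12:109545148-109545397) held none of the 4 motifs and 0 CpG dinucleotides, and the window at the gene's own start is the one printed. The Dlk1 window (chr12:109452573-109452822) held none of the 4 either. It belongs to a start that lies within the annotated gene, which begins at 109452485. Of 32851 windows of this length, 1.55% held the cAMP response element, 12.4% the TATA motif, 8.68% the ZFP57 motif and 32.7% the GC box. The printed Meg3 and Dlk1 windows had 10 and 8 CpG dinucleotides, where the median of all windows was 6. A match is a string of letters and not evidence of binding, and methylation was not measured.
Meg3: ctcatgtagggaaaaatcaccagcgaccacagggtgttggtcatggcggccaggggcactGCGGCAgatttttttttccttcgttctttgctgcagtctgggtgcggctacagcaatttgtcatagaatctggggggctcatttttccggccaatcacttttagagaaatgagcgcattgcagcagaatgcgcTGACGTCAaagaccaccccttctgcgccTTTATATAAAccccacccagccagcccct
Dlk1: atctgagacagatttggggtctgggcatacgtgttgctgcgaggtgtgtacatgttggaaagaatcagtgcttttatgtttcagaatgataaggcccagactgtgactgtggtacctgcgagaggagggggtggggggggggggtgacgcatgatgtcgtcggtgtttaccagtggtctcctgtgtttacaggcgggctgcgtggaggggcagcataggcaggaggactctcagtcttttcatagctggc

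Set side by side, the main-probe differences were 4.47 for Dlk1 on the paternal side and 4.39 for Meg3 and 4.20 for Mirg on the maternal side. The gap between the largest and the smallest of these was below the standard error of Dlk1 alone (0.29), so their order is not resolved, and signals of different probes were not compared. All 6 member probes that passed the low-signal filter were called by limma, where a call needed a p of 0.05 or less after Holm's adjustment and a difference of 2-fold or more. Over all 20448 probes in the fit, 2270 were called (11.1%), 1210 of them (5.92%) with the fetal and 1060 (5.18%) with the adult basal signal higher. The fetal arrays lay above all adult basal arrays for those 6 probes and for 34.1% of the probes in the fit, and the groups did not overlap in either direction for 69%. Since this contrast chose the members, nothing is read from their counts. Both Dlk1 probes lost the call without the low-signal filter, without any 1 of the fetal replicates and without adult basal replicate 1. The main one lost it with a trended, robust variance estimate, which left 5, and the second with slide as a block. For scale, the median absolute log2 difference of all probes in the fit was 0.55. A difference at least as large as that of the least changed Meg3 probe was reached by 438 probes (2.14%), and one at least as large as that of the less changed Dlk1 probe by 283 (1.38%).

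The transcripts whose pattern over the 6 arrays was most like Dlk1 or Meg3 were sought among 15256 genes well above background on all arrays, by the root mean square difference of mean-centred log2 signals. Closest to Dlk1 were Inpp5j (0.15), Rad54b (0.16), Cenpk (0.18), Susd4 (0.18) and Cdc25c (0.20). Rad54b acts in recombination repair, Cenpk is a kinetochore protein and Cdc25c is a phosphatase that opens mitosis. Closest to Meg3 were Apod (0.11), Cgn (0.13), Nrep (0.15), Cldn3 (0.15) and Mirg (0.18). Mirg belongs to the set that was chosen by the group difference, so nothing is read from its place here. Apod is a secreted lipid carrier, and Cgn and Cldn3 are proteins of epithelial tight junctions. With 6 arrays in 2 groups, likeness is set mostly by the size of the group difference.

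Of the genes inside the interval that were not chosen as members, 3 had a matched probe. 6430411K18Rik, an annotated transcript antisense to Rtl1 (chr12:109591537-109592851, GRCm38.p6), gave 7.72, 7.91 and 7.38 in fetal cells and 5.24, 5.35 and 5.25 in adult basal cells. It was 5.22-fold higher in fetal cells (log2 difference 2.39, standard error 0.15, adjusted p = 0.0128 by limma with Holm's method). Its adult basal signals lay below the low-signal limit of 5.95. It thus passed the filter through its fetal signal alone, and the p-value is given as a description. Its call was lost with slide as a block, with normexp background correction and in 5 of the 6 fits that leave out 1 array, all but that without fetal replicate 3. The hairpin of miR-433 lies within it, and the other microRNAs printed for the span of Rtl1 lie outside it. Dio3os, a noncoding RNA divergent from Dio3, gave 7.05, 6.81 and 7.16 against 6.83, 7.25 and 7.08. Its groups overlapped, with a difference of -0.05 (standard error 0.15), as those of Dio3 did. The third, 3110009F21Rik, was well above background on 0 arrays.

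None of the 20 nearest protein-coding genes with a probe, 10 on each side of the locus, was called higher in fetal cells. Of the 19 in the fit, 2 were called higher in adult basal cells, and their median difference was -0.25, beside -0.04 for the main probes of all genes in the fit. Of those main probes, 6.02% were called with the fetal signal higher and 5.2% with the adult basal signal higher. The small counts of 0 and 2 of 19 were not tested against these shares. At an unadjusted p below 0.05, 4 were higher in fetal and 9 in adult basal cells, and with Benjamini-Hochberg adjustment and 2-fold the counts were 1 and 6. Over all main probes, 31.8% and 32% passed the first rule and 15.8% and 13.9% the second. By both rules the neighbours' adult basal counts lay above these shares and their fetal counts below, which was not tested. The nearest before Dlk1 were Begain (-1.07, not called), Wdr25 (0.62, not called) and Wars, a tryptophan tRNA ligase, which was lower in fetal cells by 1.62 on the log2 scale (standard error 0.12). The nearest after Dio3 were Ppp2r5c (-1.26), Dync1h1 (-0.36) and 1700001K19Rik (-0.25), none of them called. Slc25a47, one of the mitochondrial carriers, was the other called gene (-2.19). Both calls were lost when any 1 array was left out and with slide as a block, and that of Wars also with 75th percentile normalization.

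**Figure D2:**
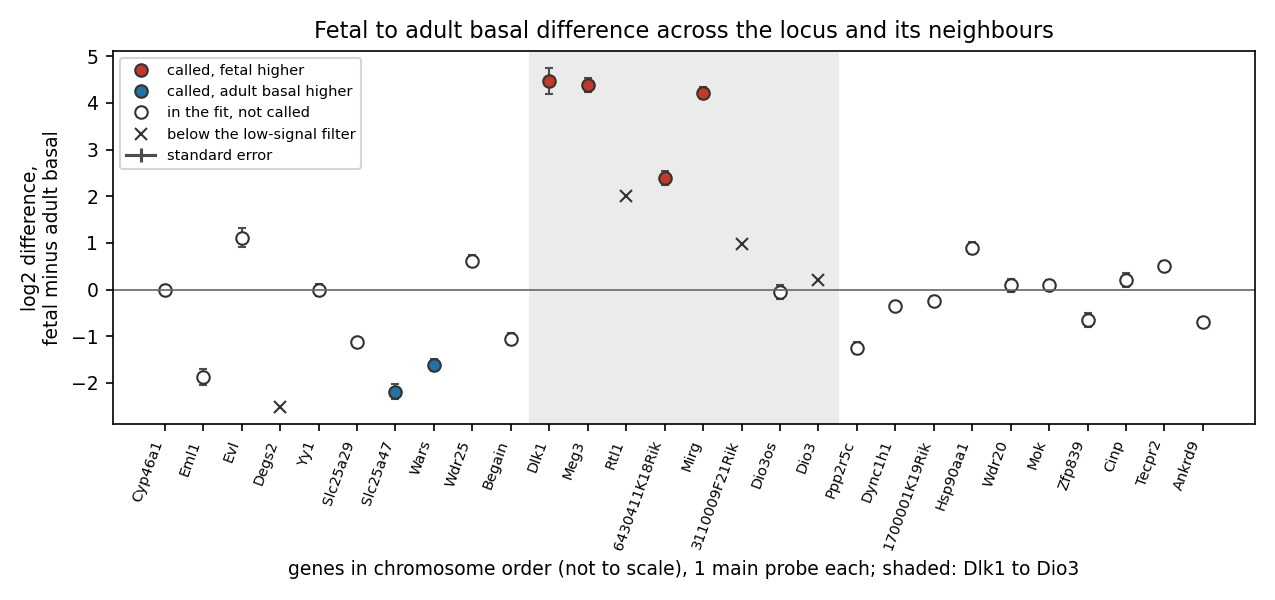
Log2 difference, fetal minus adult basal (vertical axis), of the main probe of each gene in chromosome order (horizontal axis, not to scale), with standard errors from limma for probes in the fit and the Dlk1 to Dio3 interval shaded. Called fetal-higher genes, Dlk1, Meg3, 6430411K18Rik and Mirg, lie inside the shaded interval, and the 2 called neighbours, Wars and Slc25a47, lie below 0.

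Because no probe was matched to Rian, the array's probes for unnamed transcribed regions were examined. These are designed against mm9 coordinates, in a forward and a reverse orientation, and no coordinate was converted. Instead, the spacing of Rian and Mirg in RefSeq was used. Their starts are 131036 bases apart in GRCm38.p6 and Mirg is 14478 bases long. Among 119 forward regions of chromosome 12, exactly 1 pair had that same distance between starts and that same length of the second region, chr12:110842154-110883594 and chr12:110973190-110987668 (mm9). The match to Rian and Mirg rests on that spacing alone. The first region spans 41440 bases whereas Rian is 57772 bases long, so the length of Rian was not matched. In all, 64 region probes overlapped the stretch from the first region to the second.

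In that stretch, 27 of 38 forward probes (71.1%) were higher on all fetal than on all adult basal arrays, and 0 were lower on all. The same held for 13.3% of the 8133 other forward region probes of the array. The median difference was 1.1, beside -0.10 for those others, and the range was -0.30 to 5.98. Of 26 reverse probes, 15 (57.7%) were higher on all fetal arrays and 1 was higher on all adult basal arrays, with a median of 0.53, beside 13.9% and -0.10 for the 7984 other reverse region probes. Probes of one region share a target, and regions overlap, so these counts are not counts of transcripts and were not tested. The values include dim probes, since 6 forward and 7 reverse probes were well above background on no adult basal array.

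Among the forward probes with large differences was A_30_P01026799 (region chr12:110894095-110899517, mm9), which gave 12.42, 12.16 and 11.94 in fetal cells and 6.90, 7.91 and 6.81 in adult basal cells. A second probe of that region, A_30_P01032789, gave 12.04, 11.81 and 11.93 against 7.66, 8.08 and 7.47. Their differences were 4.96 and 4.19, and for neither did the groups overlap. The region that shares its start with the inferred position of Rian had a probe, A_30_P01032469, with 9.64, 9.45 and 9.27 against 3.79, 3.82 and 2.81, although only 1 adult basal array was well above background. The other forward probe of that region, A_30_P01027400, was well above background on all 6 arrays and differed by 0.65. For A_30_P01019278 (region chr12:110870903-110891628) no adult basal array was well above background, and the fetal signal was at least 16.8-fold higher. At the other end, the 3 forward probes of the region with the length of Mirg differed by between -0.10 and 1.23, which is less than the 4.20 of the Mirg probe itself. Large forward differences were not limited to the inferred position of Rian. In the region chr12:110909258-110913909, A_30_P01020822 differed by 5.60 with 1 adult basal array well above background, A_30_P01029814 was at least 11.4-fold higher in fetal cells with none, and the remaining probe, A_30_P01030446, differed by 0.19. Probes of the forward regions that start after it, toward Mirg, did not exceed 2.10.

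**Figure D3:**
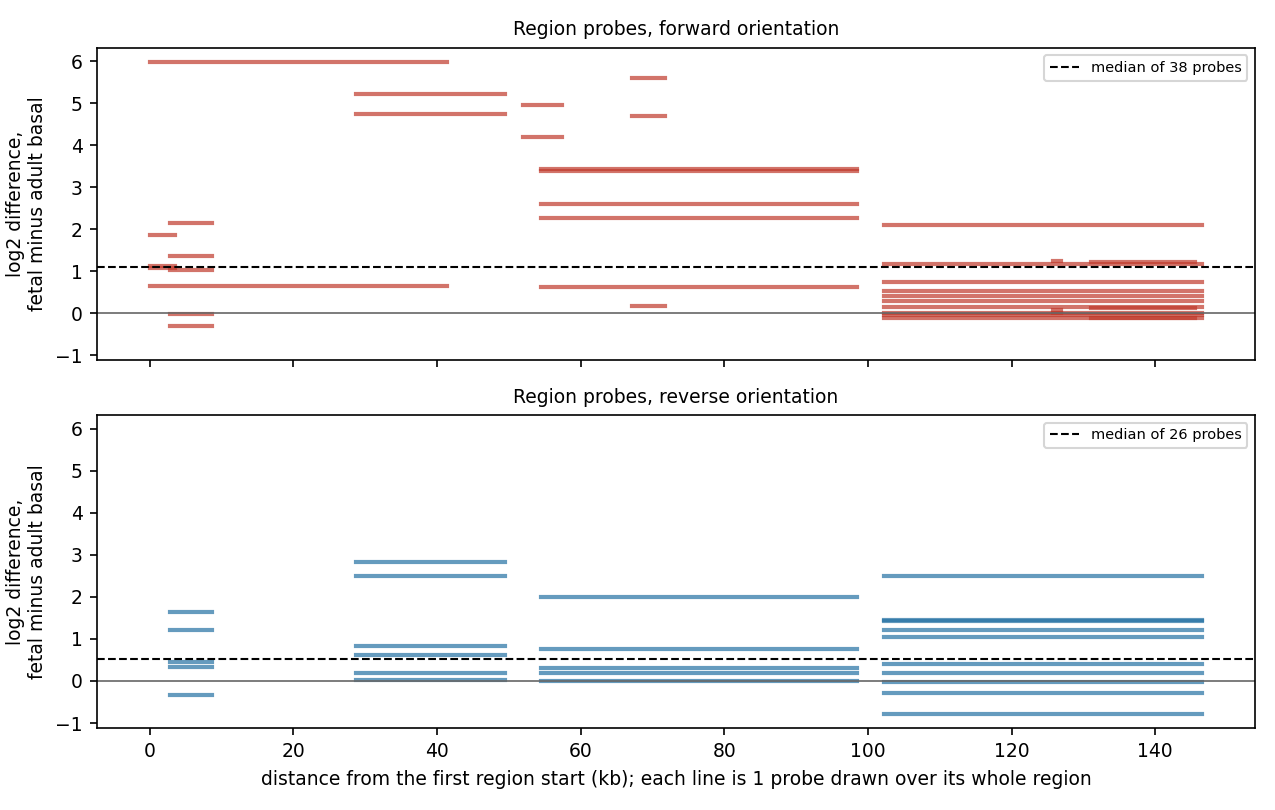
Log2 difference, fetal minus adult basal (vertical axis), of each of the 38 forward (upper panel) and 26 reverse (lower panel) region probes, drawn as a line over the whole of its region because its place within it is not given. The horizontal axis is distance in kb from the first region start, and dashed lines mark the medians of 1.1 and 0.53.

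Imprinted genes of other loci were described with the same fit, by lists chosen with earlier results of these arrays known. The parental classes are those known for the genes elsewhere, and the allele used in these cells was not measured. Of 20 paternally expressed genes, 6 were called higher in fetal cells and 0 in adult basal cells, with a median difference of 0.72. At an unadjusted p below 0.05 the counts were 10 and 6, and with Benjamini-Hochberg adjustment and 2-fold 8 and 1, to be read beside the shares of all main probes given for the neighbours. The largest differences among the called genes were those of Mest (3.65), a membrane protein of the hydrolase fold, Peg3 (3.38), a zinc finger protein, and Zdbf2 (2.82). The 6 calls fell to 3 and 1 without fetal replicates 1 and 2 and to 2 without adult basal replicate 1 or 3. Mest was called in 1 of the 6 fits that leave out 1 array, that without adult basal replicate 2. With slide as a block the Mest call was lost too. Of 12 maternally expressed genes in the fit, 6 were called higher in fetal cells and 1 in adult basal cells, with a median of 2.97. Here the counts were 9 and 1 by either of the other rules. Cdkn1c, an inhibitor of cyclin-dependent kinases, led with 14.24, 14.33 and 14.36 against 8.46, 8.03 and 8.43, a 64.1-fold difference. Among the called genes it was followed by Cobl (3.53), an actin nucleator, and Ddc (3.37), a decarboxylase of which a heart isoform is known to be paternally expressed, while Ascl2 was lower in fetal cells by 1.82 on the log2 scale. Without Ddc, an alternative chosen after seeing the data, 5 of 11 genes were called higher in fetal cells, with a median of 2.90. The 7 calls of the list fell to 2, 3 and 3 without fetal replicates 1, 2 and 3 and to 3 and 4 without adult basal replicates 1 and 3. The call of Ascl2 was lost in all 6 fits that leave out 1 array and with slide as a block, and that of Ddc without any 1 of the fetal replicates or without adult basal replicate 1. H19 had no matched probe. Genes of both classes were left uncalled over a wide range of differences. Among the paternally expressed genes these were Nap1l5 (-4.26), which was well above background on 0 fetal arrays and at least 7.24-fold higher in adult basal cells, Nnat (3.57), Magel2 (-0.64) and Airn (-0.02). Among the maternally expressed genes they were Ppp1r9a (5.72), Phlda2 (3.69), Asb4 (-0.06) and Ube3a (0.03).

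Of 16 genes in the fit that maintain imprints or set the chromatin marks around them, 3 were called higher in fetal cells. In adult basal cells 0 were called higher, and the median was 0.39. At an unadjusted p below 0.05 the counts were 8 and 3, and with Benjamini-Hochberg adjustment and 2-fold 4 and 0. Over all main probes, 6.02% and 5.2% were called, 31.8% and 32% passed the second rule and 15.8% and 13.9% the third. The 3 called genes were Uhrf1 (7.19), which brings the maintenance methyltransferase to replicating DNA, Ezh2 (2.21), which methylates histone H3, and Dnmt3b (1.96), which methylates DNA afresh. Trim28 (0.60) and Zfp57 (-0.15), which act at imprinted control regions, were not called. For Dnmt3b the call was lost when any 1 array other than adult basal replicate 2 was left out and with slide as a block, while those of Uhrf1 and Ezh2 were kept in all 13 alternatives.

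The Notch pathway was listed because Dlk1 is related to its ligands. Of 16 genes in the fit, 3 were called higher in fetal cells and 1 in adult basal cells, with a median of 0.06. At an unadjusted p below 0.05 the counts were 6 and 3, and with Benjamini-Hochberg adjustment and 2-fold 5 and 2. Over all main probes, 6.02% and 5.2% were called, 31.8% and 32% passed the second rule and 15.8% and 13.9% the third. The receptors Notch3 (4.70) and Notch1 (1.87) and the target Hes1 (4.78) were higher in fetal cells, and the ligand Jag2 was lower by 1.83. The 4 calls fell to 2, those of Notch3 and Hes1, without any 1 of the fetal replicates or without adult basal replicate 1. That of Jag2 was also lost without adult basal replicate 3 and with slide as a block. The receptors Notch2 (-0.19) and Notch4 (0.18) were not called, and Dlk2, the relative of Dlk1, had no matched probe.

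Thyroid hormone genes were listed because Dio3 inactivates the hormone. Of 11 in the fit, 1 was called in each direction, with a median of -0.12. At an unadjusted p below 0.05, 2 were higher in fetal and 4 in adult basal cells. With Benjamini-Hochberg adjustment and 2-fold the counts were 1 and 2. Over all main probes, 6.02% and 5.2% were called, 31.8% and 32% passed the second rule and 15.8% and 13.9% the third. Thrsp, a hormone-responsive gene named after its value was seen because only 1 adult basal array was well above background, was higher in fetal cells by 4.30. No gene of this list was called without any 1 of the fetal replicates or without adult basal replicate 1, and the Thrsp call was also lost with normexp. Among the 13 genes that process small RNAs, which act on the microRNAs and small nucleolar RNAs of the locus, limma with Holm adjustment called 0, with a median of 0.23. At an unadjusted p below 0.05, 5 were higher in fetal and 4 in adult basal cells, and with Benjamini-Hochberg adjustment and 2-fold it was 1 and 1. These counts too are to be read beside the shares of all main probes. Drosha, which makes the first cut, differed by 1.40, and Dicer1, which makes the second, by -0.77. The 22 calls over the 6 lists fell to 9, 8 and 12 without fetal replicates 1, 2 and 3, to 9 and 12 without adult basal replicates 1 and 3, and became 25 without adult basal replicate 2.

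**Figure D4:**
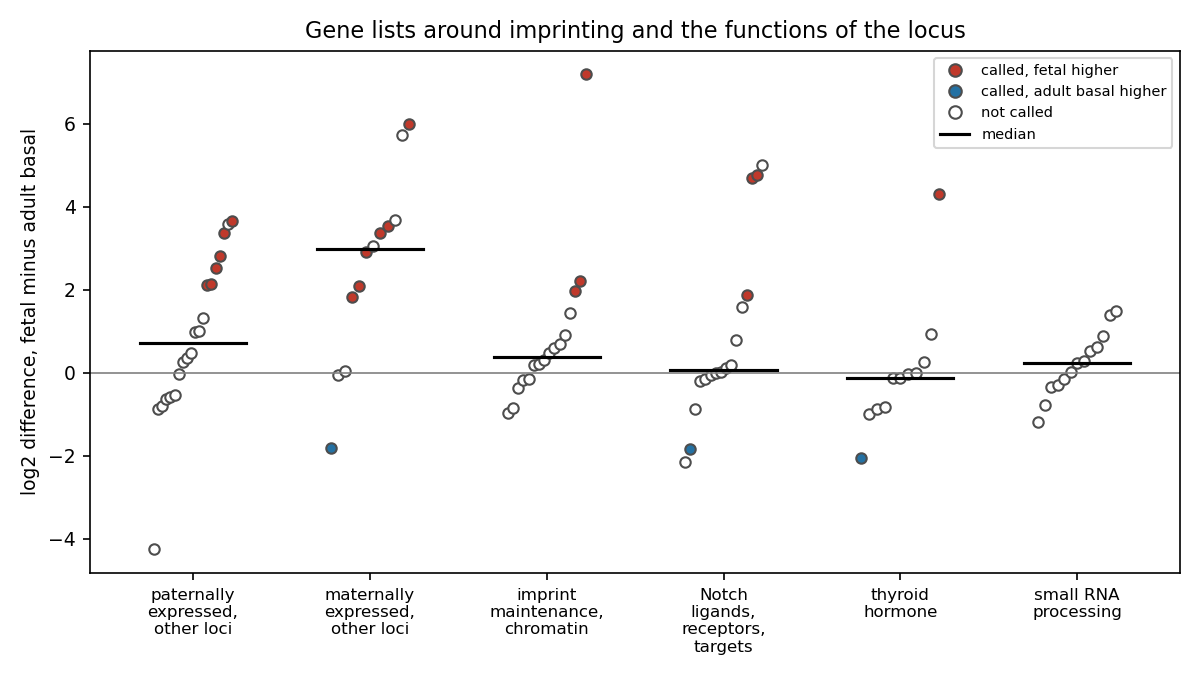
Log2 difference, fetal minus adult basal (vertical axis), of the main probe of every gene in the fit, in 6 lists (horizontal axis), with filled circles for called genes and bars at the medians. The medians run from -0.12 for thyroid hormone genes to 2.97 for maternally expressed genes of other loci.

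Markers of cell types that the sorts could hold were read on the same arrays. The counts of each list are to be read beside the shares of all main probes. Of these, 6.02% were called higher in fetal and 5.2% higher in adult basal cells. At an unadjusted p below 0.05 the shares were 31.8% and 32%, and with Benjamini-Hochberg adjustment and 2-fold 15.8% and 13.9%. Sums of a list's linear signals are led by its brightest probe, and since probes differ in efficiency neither the sum nor the brightest probe ranks the genes by amount of RNA. Of 10 basal and myoepithelial markers, 0 were called higher in fetal and 7 higher in adult basal cells, with a median of -4.01. The brightest was Acta2 (-4.07), and Krt5 was called too (-3.90). Trp63, a transcription factor of basal cells, was bright in both and differed by -0.08, and Lgr5 was 2.64 higher in fetal cells without overlap of the groups, although it was not called. Of 11 luminal markers in the fit, 5 were called higher in fetal cells and 0 in adult basal cells, with a median of 2.13. The brightest was Krt18 (0.58, not called), and Elf5 differed by 7.55. Krt19 (-1.22) and Prlr (-0.35) went the other way and were higher on all adult basal arrays, without a call. Esr1 (-1.06) was also higher on all adult basal arrays, but it was dim and not in the fit. At an unadjusted p below 0.05, 8 luminal markers were higher in fetal and 2 in adult basal cells, and with Benjamini-Hochberg adjustment and 2-fold it was 6 and 1. The calls of Pgr and Foxa1 were lost without any 1 of the fetal replicates or without adult basal replicate 3, and that of Pgr also without adult basal replicate 2 and with slide as a block. The 2 populations thus differed in basal and luminal markers as well as in the locus, and the part of such cell types in the result was not tested.

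Stromal cells, in which Dlk1 is known to be expressed, were read by their own markers. Both sorts took EpCAM-positive cells, whereas the study places stromal cells in the EpCAM-negative fraction, and BP-1, its stromal marker in adult glands, was used for the adult cells alone. The part of such cells in the result was not tested. Of 9 fibroblast markers in the fit, 0 were called higher in fetal and 2 higher in adult basal cells, with a median of -1.05. At an unadjusted p below 0.05 the counts were 0 and 8, and with Benjamini-Hochberg adjustment and 2-fold 0 and 5. The summed linear signal of fibroblast markers was 6279, 6469 and 7950 in fetal and 18110, 22210 and 28810 in adult basal replicates. The brightest was Col1a2 (-0.90, not called), Dcn differed by -3.78, and Dpt was well above background on no fetal array. Of 7 adipocyte markers, limma called 0, with 2 higher in fetal and 3 higher in adult basal cells at an unadjusted p below 0.05 and with 0 and 1 by Benjamini-Hochberg adjustment and 2-fold. The brightest was Fabp4, with 8.43, 8.67 and 10.43 in fetal cells and 10.26, 10.25 and 10.64 in adult basal cells, and the summed signal was 1955, 1945 and 3705 against 3677, 3349 and 4548. Adipoq was well above background on 2 of the fetal arrays and on 0 adult basal arrays and gave 5.62, 3.99 and 8.17 in fetal cells. Fetal replicate 3 was thus the highest fetal array for the summed fibroblast and adipocyte markers. It was also the highest for the endothelial markers Cdh5, Emcn and Cldn5. That array was the lowest fetal array for Meg3 and Mirg, and the part of such cells in the result was not tested. Without that array the difference was 4.52 for Meg3 and 4.26 for Mirg.

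Of 8 skeletal muscle markers, 4 were in the fit, and only Acta1, the brightest, was called, as lower in fetal cells by 4.68. Myf5 and Actn2 were well above background on 0 arrays. The summed signal was 1504, 1480 and 1305 against 21370, 23650 and 21290, most of the latter from Acta1. The other markers in the fit, Myod1 (-0.07), Myog (-0.17) and Pax7 (-0.21), overlapped between the groups. Des, which was not in the fit, was well above background on 0 fetal and 3 adult basal arrays. It was at least 2.46-fold higher in adult basal cells. Of the endothelial and leukocyte markers, 5 and 7 were in the fit and limma called 0 of either. At an unadjusted p below 0.05, 3 and 2 were higher in adult basal cells and 0 in fetal cells, as with Benjamini-Hochberg adjustment and 2-fold. The brightest were Kdr (-0.04) and Itgam (0.24), and the summed signal was 12270, 10840 and 12610 against 12890, 13820 and 11280 for endothelial and 34650, 28970 and 26450 against 24710, 34010 and 27900 for leukocyte markers. The sums overlapped in both lists, and most of the endothelial sum came from Kdr. Among endothelial markers the dimmer Cdh5 (-2.70), Emcn (-1.79) and Cldn5 (-1.40) were higher on all adult basal than on all fetal arrays. Tek, well above background on 0 fetal arrays, was at least 1.86-fold higher in adult basal cells. Among leukocyte markers Cd52 (-4.39) and Lyz2 (-1.76) were higher on all adult basal than on all fetal arrays. The part of such cells in the result was not tested.

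**Figure D5:**
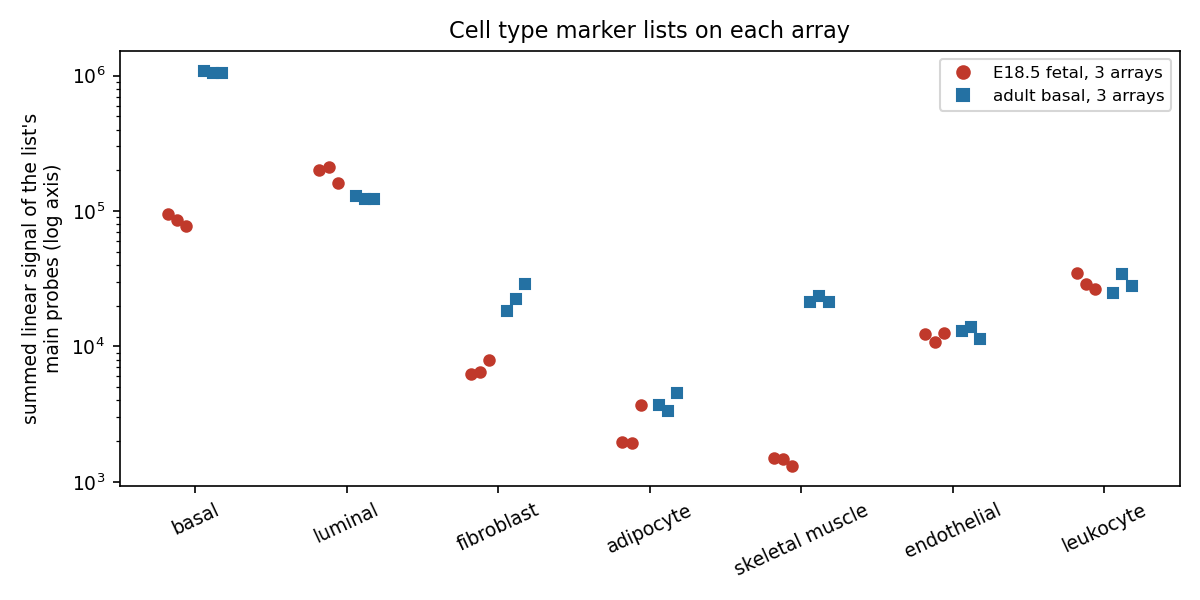
Summed linear signal of each marker list's main probes (vertical axis, log scale) on each of the 3 fetal arrays (circles) and 3 adult basal arrays (squares), by cell type (horizontal axis). The sums of fibroblast markers and of skeletal muscle markers, the latter mostly Acta1, lie higher on all adult basal arrays, luminal markers higher on all fetal arrays, and the endothelial and leukocyte sums overlap.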

How the data were processed

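RNA of sorted cells was labelled with Cy3 and hybridized to Agilent SurePrint G3 mouse arrays, and the authors extracted intensities with Feature Extraction 11.0.1.1. The deposited intensity used was the processed signal, background-subtracted and detrended within each array. The labels and the paper's methods name different labelling kits. The arrays were designed on mm9. The authors also deposited log2 values, quantile normalized in GeneSpring, whose scale matched the scanner signal (r at least 0.999 per array, column medians 7.106 or 7.107). They served as an alternative.

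Processed signals were log2 transformed and quantile normalized over 6 arrays, with spots of 1 probe averaged and outlier spots left out. The files carry no gene names, so probes were matched by accession alone (27235 probes, 20660 genes). Probes in the lowest of 3 k-means clusters in both populations (below 5.95) were removed. A probe that was dim in only 1 population was kept, so some called probes passed through their brighter population alone. limma 3.58.1 was fitted in R 4.3.3 without covariates and Holm's adjustment was applied over 20448 probes. The fit was tested on simulated data. With 3 arrays against 3, no exact permutation p falls below 0.1, so calls rest on limma's pooled variance, and the number of arrays limits precision. Slide and scan coincide, and both hold both populations.

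The members and the gene lists were chosen with earlier results of these data known. Named were all members, the 3 nearest neighbours on each side, the 3 most changed called genes of a list in each direction if above background on all arrays, each marker list's brightest gene and called genes among its first 3, and the 5 genes most like Dlk1 and Meg3. Other genes were named after their values were seen, and 1 called gene that the rule names is not reported here. Alternatives were other normalization, background correction, offset, filter, probes, adjustment, blocks and leaving out each array.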

Additional observations from a re-analysis of the deposited data

How the results depend on the processing

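The main-probe difference of Dlk1 ran from 4.17 to 4.79 and that of Dio3 from 0.07 to 0.37 over 13 alternatives, within the spread between arrays. Meg3 differed by 4.17 with the mean of its probes and Mirg by 3.65 with normexp background correction, and Rtl1, near background, by 0.39 with normexp and 0.87 with an offset of 16. Leaving out 1 array gave 4.17 to 4.79 for Dlk1, 1.62 to 2.41 for Rtl1, 0.07 to 0.37 for Dio3, 4.29 to 4.52 for Meg3 and 4.11 to 4.28 for Mirg. No direction of a called member was reversed. Member probes called numbered 4 to 6 when 1 array was left out and 4 without the low-signal filter, probes of Dlk1 being those lost (without any 1 of the fetal replicates or adult basal replicate 1), and 3 genes were called with probes averaged per gene. The calls over all probes numbered 1182 without the low-signal filter, 6133 (3267 higher in fetal) with Benjamini-Hochberg adjustment and 948 to 1949 when 1 array was left out: 948, 974 and 1055 without fetal replicates 1, 2 and 3, and 1469 and 1327 without adult basal replicates 1 and 3. Calls in the lists numbered 35 with Benjamini-Hochberg adjustment and 8 to 25 when 1 array was left out. The cause of these changes was not tested.

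Same-numbered fetal and adult arrays deviated from their group means with correlations of -0.03, 0.09 and 0.05. Fetal replicate 1 and adult basal replicate 3, which share a slide, gave -0.03. The check thus missed a known shared slide and cannot decide whether the numbers pair the samples. With the replicate block, 1302 probes, 5 member probes and 11 genes of the lists were called, and the second Dlk1 probe, 6430411K18Rik, Dnmt3b, Mest, Wars and Slc25a47 were among those no longer called. With slide as a block, 1541, 5 and 17 were. Matching by accession alone was not run as an alternative because it is the main setting. Signal near background limits Rtl1 and Dio3.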
